A study of Mus musculus with 8 samples.

Results

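The 45 mitosis and spindle genes described here are a set of G2/M, spindle, kinetochore and cytokinesis genes, listed by name. All 45 were found among the 35498 genes with a transcript in the files, each under 1 gene identifier, and all 45 were among the 16309 genes with enough reads to test. They were followed in 8 RNA sequencing libraries, each made in bulk from sarcoma cells that had been sorted out of mouse tumours. The sarcoma line came from C57BL/6 mesenchymal stem cells that lacked p53 and overexpressed the cyclin E1 gene Ccne1, and every group carried both changes. Cells of the sgMif group had Cas9 and a guide RNA against Mif, and cells of the sgSCR group had Cas9 and a control guide. Cells of the shMif group had a short hairpin RNA against Mif, and cells of the shSCR group had a control hairpin. The study's design text puts Cas9 into the hairpin groups as well, while the growth protocol names Cas9 for the guide groups alone. The cells were placed subcutaneously, on scaffolds of polyurethane, in recipient mice until tumours reached about a cubic centimetre, and were sorted on a fluorescent marker before RNA extraction. Each group held 2 libraries, and the labels name no mouse for any library. The p-values therefore measure the spread between 2 libraries, which may be technical. The question was how Mif, the gene of a cytokine called macrophage migration inhibitory factor, bears on programs inside the tumour cell.

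Entry into mitosis is driven by CDK1 bound to cyclin A or cyclin B, which the CDC25 phosphatases switch on. The kinases PLK1, Aurora A and Aurora B then organise centrosomes, the spindle and the attachment of chromosomes to it. The spindle checkpoint holds the anaphase-promoting complex (APC/C) in check until chromosomes are attached, and the complex then marks securin and the B cyclins for destruction. Most genes of this machinery are transcribed late in the cell cycle, so their summed RNA is widely used as a readout of how many cells are dividing. In bulk RNA, fewer dividing cells and less RNA per dividing cell cannot be told apart.

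The libraries held 19042235 to 51819308 reads. Mif itself stood at 221 and 222 CPM (counts-per-million units) in sgMif libraries, against 377 and 455 in sgSCR libraries, and at 277 and 222 in the libraries labelled shMif, against 170 and 375 in shSCR libraries. Its log2 fold change was -0.91 ± 0.32 (SE) for sgMif against sgSCR and -0.13 ± 0.32 for labelled shMif against shSCR, and neither passed edgeR's quasi-likelihood test (adjusted p = 0.215 and 0.925). Mif RNA was therefore not shown to be lower in the libraries labelled shMif. A guide need not lower the RNA of the gene it cuts, so the level in sgMif libraries does not check that label. Mesenchymal markers such as Col1a1 summed to 17110 to 37490 CPM in every library. Summed olfactory receptor genes set sgMif 2, labelled shMif 2 and shSCR 2 apart, at 379, 552 and 522 CPM, from the other 5 libraries at 1329 to 2541 CPM. Library shSCR 1 had the lowest mitochondrial share of reads (1.62%, against 2.12 to 2.65% elsewhere) and the highest share on retained-intron transcripts (5.41%, against 3.90 to 4.84%).

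Late cell cycle promoters often carry a cell cycle homology region, which the MuvB complex binds in human cells, and CCAAT boxes, which the factor NF-Y binds. The windows from 150 bases before to 30 bases after the annotated start are printed for 6 of the 7 genes that passed the test of sgMif against sgSCR, and for Bub3 and Pttg1, which had the smallest changes. The seventh, Aurkb, lies at chr11:69045647-69051664 on the plus strand of mm10 (GENCODE M21) and is named only. Sequences are from RefSeq on GRCm38.p6, read 5′ to 3′ on the gene's strand. Capitals mark a cell cycle homology region, searched as TTTGAA or TTCGAA, and a CCAAT box, on either strand.
Nek2 (chr1:191821323-191821502, plus strand): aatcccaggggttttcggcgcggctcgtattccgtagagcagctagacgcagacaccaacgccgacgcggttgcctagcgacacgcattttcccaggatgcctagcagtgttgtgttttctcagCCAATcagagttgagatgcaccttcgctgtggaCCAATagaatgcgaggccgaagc
Cdc25b (chr2:131186798-131186977, plus strand): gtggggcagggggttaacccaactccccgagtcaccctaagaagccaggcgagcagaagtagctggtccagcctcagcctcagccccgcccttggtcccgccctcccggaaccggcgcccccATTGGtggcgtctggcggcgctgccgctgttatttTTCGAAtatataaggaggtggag
Prc1 (chr7:80294301-80294480, plus strand): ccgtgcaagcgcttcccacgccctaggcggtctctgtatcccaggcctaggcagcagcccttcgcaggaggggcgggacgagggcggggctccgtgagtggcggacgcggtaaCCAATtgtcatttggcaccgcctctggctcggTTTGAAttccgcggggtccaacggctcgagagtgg
Ccnb1 (chr13:100786457-100786636, minus strand): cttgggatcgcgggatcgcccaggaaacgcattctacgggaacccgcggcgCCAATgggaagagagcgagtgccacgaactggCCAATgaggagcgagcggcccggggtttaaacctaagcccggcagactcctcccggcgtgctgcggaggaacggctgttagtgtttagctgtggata
Mki67 (chr7:135716350-135716529, minus strand): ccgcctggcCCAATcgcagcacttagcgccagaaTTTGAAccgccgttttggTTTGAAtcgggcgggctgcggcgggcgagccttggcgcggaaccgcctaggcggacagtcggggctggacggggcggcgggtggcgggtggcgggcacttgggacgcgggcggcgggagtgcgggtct
Smc2 (chr4:52439071-52439250, plus strand): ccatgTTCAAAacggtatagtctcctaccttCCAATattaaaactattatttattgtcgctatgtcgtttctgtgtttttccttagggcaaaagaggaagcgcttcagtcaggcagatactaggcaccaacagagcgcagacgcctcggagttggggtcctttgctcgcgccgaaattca
Bub3 (chr7:131560220-131560399, plus strand): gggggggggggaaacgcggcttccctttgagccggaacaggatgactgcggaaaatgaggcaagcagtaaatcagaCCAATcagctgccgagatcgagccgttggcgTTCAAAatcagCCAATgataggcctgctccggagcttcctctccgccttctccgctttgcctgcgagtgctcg
Pttg1 (chr11:43425952-43426131, minus strand): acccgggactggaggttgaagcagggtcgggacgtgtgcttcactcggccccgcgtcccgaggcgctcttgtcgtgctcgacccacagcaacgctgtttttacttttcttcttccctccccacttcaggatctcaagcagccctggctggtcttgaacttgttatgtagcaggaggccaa
The Nek2 and Ccnb1 windows each held a pair of CCAAT boxes and neither TTTGAA nor TTCGAA on either strand. Other forms of the cell cycle homology region were not searched. The Cdc25b, Prc1, Mki67, Smc2 and Bub3 windows held both motifs, and the Pttg1 window held neither. The Pttg1 window, set by the RefSeq start at base 43425981, lay wholly inside the GENCODE M21 gene. That gene begins at base 43426251 on the minus strand, and the sequence around this base was not searched. So the window does not show that Pttg1 lacks the motifs. So Bub3, with a small change, carried the same motifs as Prc1 and Cdc25b. A match is a run of letters and does not show binding.

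Over the longer window of 250 bases before to 50 bases after the start, 37 of the 45 genes had a sequence to search. Of these, 28 (75.7%) held a cell cycle homology region, against 19.4% of all 27025 promoters in the RefSeq table. Within 50 bases of the start, the motif was found in 25 of 37 (67.6%), against 5.29% of all promoters. CCAAT boxes were present in 27 of 37 (73.0%), against 37.9% of all promoters, and 24 of 37 (64.9%) held both motifs, against 7.70%. Neither motif contains the other. Among 38 replication and G1/S genes that could be searched, 8 (21.1%) held the cell cycle homology region, a share near that of all promoters, while 24 (63.2%) held a CCAAT box.

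Apart from Pttg1, which was nearly level, the 45 mitotic genes had higher levels in the cells of sgMif tumours than in those of sgSCR tumours. Of the 45, 7 passed the test. The 45 genes together took 4788 and 5342 CPM in sgMif libraries, against 3022 and 2486 CPM in sgSCR libraries. All 45 log2 fold changes were above 0, with a median of 0.83, while the median of all genes tested was -0.01. By edgeR's quasi-likelihood test at an adjusted p of 0.05, 7 passed as higher and 0 as lower, where 0.368% of all genes passed as higher and 0.619% as lower. An unadjusted p under 0.05 was reached by 42 of the 45, against 16.6% of all genes. In all 45, both sgMif libraries lay above both sgSCR libraries, a pattern seen in 27.1% of all genes. For Pttg1 the nearest values were 10.27 CPM in sgMif 1 and 10.23 CPM in sgSCR 1.

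**Figure D1:**
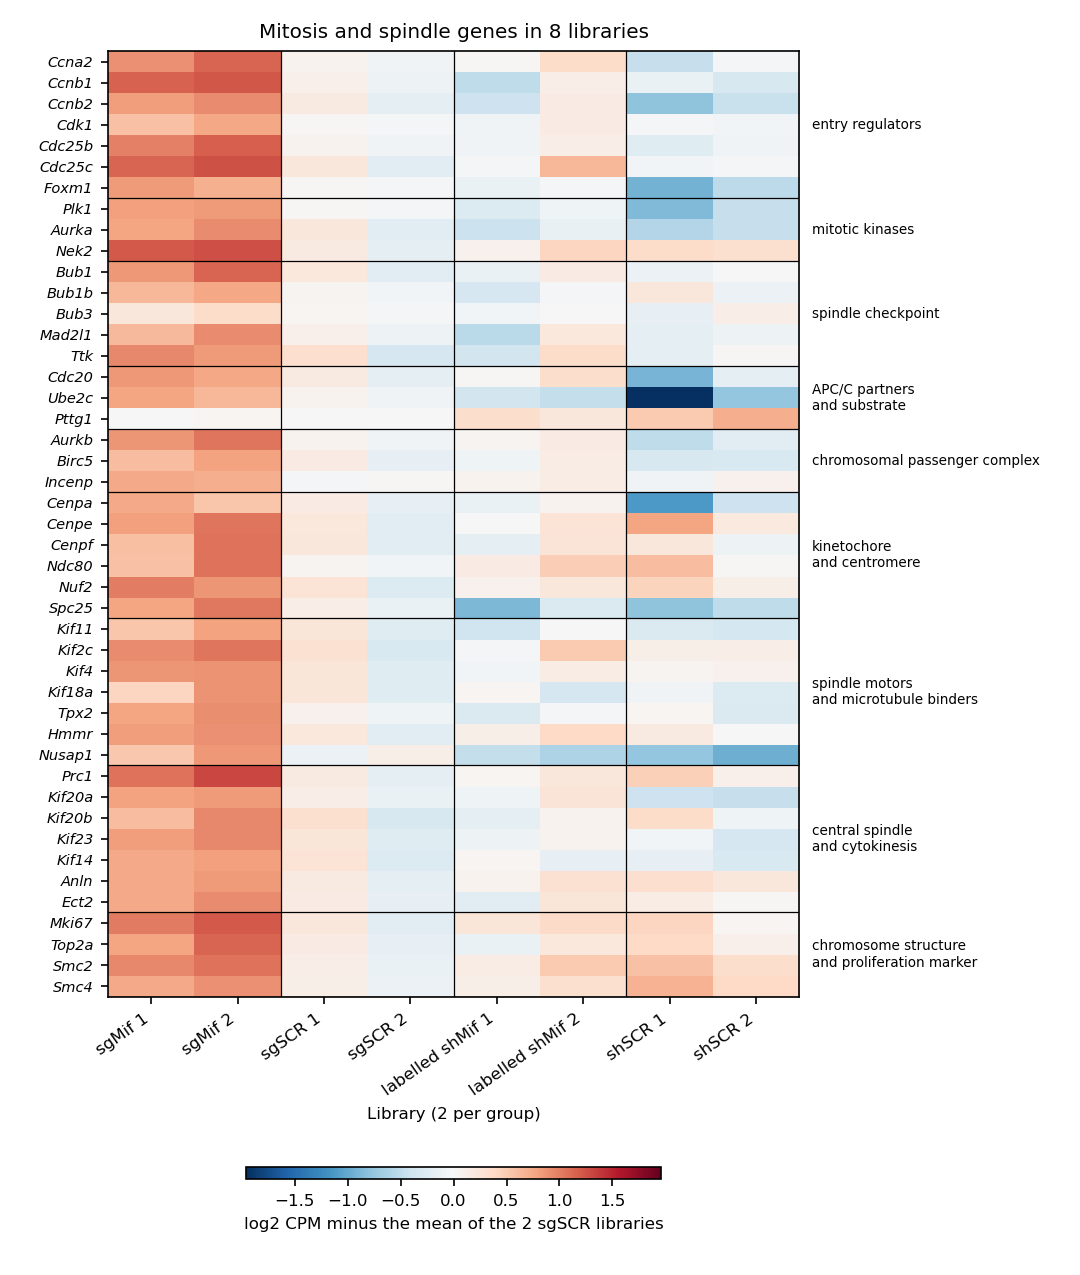
Heat map of the 45 genes (rows, grouped by role) in the 8 libraries (columns), coloured by log2 CPM minus the mean of the 2 sgSCR libraries of that gene. The sgMif columns are red for nearly every gene, while the labelled shMif and shSCR columns hold both colours, and Ube2c in shSCR 1 is the darkest blue cell.

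Among the 7 genes that promote entry into mitosis, Ccnb1 and Cdc25b passed. Ccnb1, the gene of cyclin B1, stood at 86.7 and 91.2 CPM in sgMif libraries, against 41.9 and 36.5 CPM in sgSCR libraries. Both sgMif values were clear of every other library, the next being 42.6 CPM in labelled shMif 2. Its log2 fold change was 1.18 ± 0.21 (SE; 2.27-fold; adjusted p = 0.0494 by edgeR). Cdc25b, a phosphatase that activates CDK1 complexes, stood at 66.5 and 75.4 CPM in sgMif libraries, against 35.1 and 31.7 CPM in sgSCR libraries. The other 6 libraries lay close together, between 28.4 and 36.4 CPM, below both sgMif libraries. Its log2 fold change was 1.09 ± 0.15 (2.12-fold; adjusted p = 0.0330).

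The other 5 entry regulators did not pass. In each, both sgMif libraries lay above both sgSCR libraries, as they did in 27.1% of all genes. Ccna2, the gene of cyclin A2, was just outside the threshold, at 212 and 253 CPM in sgMif libraries and 120 and 109 CPM in sgSCR libraries (log2 fold change 1.02 ± 0.19, adjusted p = 0.0555 by edgeR). Cdc25c, the phosphatase that triggers mitosis, had a fold change of similar size (1.17 ± 0.29) at lower counts, 16.2 and 17.4 CPM in sgMif libraries against 8.6 and 6.28 CPM in sgSCR libraries, with an adjusted p of 0.103. Cdk1, the kinase at the centre of the program, had the smallest change of the 7, at 67.8 and 77.1 CPM in sgMif libraries and 45.97 and 44.97 CPM in sgSCR libraries (0.67 ± 0.14, adjusted p = 0.0733). Ccnb2, a second B cyclin, and Foxm1, a transcription factor of G2/M genes, had log2 fold changes of 0.86 and 0.76.

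Of the 3 mitotic kinases, Nek2 passed and had the largest log2 fold change of the 45 genes. NEK2 is a kinase that separates centrosomes. Its gene stood at 53.4 and 55.5 CPM in sgMif libraries, against 26.3 and 20.5 CPM in sgSCR libraries, and at 24.6 to 31.2 CPM in the 4 hairpin libraries. Only the sgMif libraries were high. The log2 fold change was 1.22 ± 0.18 (2.32-fold; adjusted p = 0.0333 by edgeR). Plk1 and Aurka, the genes of Polo-like kinase 1 and Aurora A, had log2 fold changes of 0.82 and 0.83 that did not pass.

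Within the chromosomal passenger complex, which corrects faulty attachments at the centromere, Aurkb passed. Aurkb, the gene of its kinase Aurora B, stood at 51.5 and 59.1 CPM in sgMif libraries, against 29.9 and 27.1 CPM in sgSCR libraries. The 4 hairpin libraries lay at 20.2 to 31.6 CPM. The log2 fold change was 0.96 ± 0.16 (1.94-fold; adjusted p = 0.0404 by edgeR). Incenp, the scaffold that anchors the kinase, was just outside the threshold at 0.72 ± 0.13 (adjusted p = 0.0502), and Birc5, the gene of survivin, had 0.69 ± 0.17.

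Prc1 was the 1 of 7 central spindle and cytokinesis genes to pass. PRC1 bundles the microtubules between the separating chromosomes. Its gene stood at 132 and 156 CPM in sgMif libraries, against 71.3 and 55.8 CPM in sgSCR libraries (log2 fold change 1.18 ± 0.19; 2.26-fold; adjusted p = 0.0394 by edgeR). The sgMif values exceeded the highest of the other 6, 87.6 CPM in shSCR 1. The others of this role, among them the kinesins Kif20a and Kif23, the cytokinetic scaffold Anln and the cytokinesis regulator Ect2, had log2 fold changes between 0.75 and 0.86 and did not pass.

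Mki67 and Smc2 passed among the 4 genes of chromosome structure and proliferation. Mki67 encodes Ki-67, which coats mitotic chromosomes and is the common histological marker of dividing cells. It stood at 535 and 610 CPM in sgMif libraries, against 308 and 228 CPM in sgSCR libraries (log2 fold change 1.10 ± 0.19; 2.14-fold; adjusted p = 0.0481 by edgeR). Its 4 hairpin libraries lay at 271 to 353 CPM. Smc2, a core subunit of condensin, stood at 162 and 178 CPM in sgMif libraries, against 92.6 and 77.5 CPM in sgSCR libraries (1.00 ± 0.17; 1.998-fold; adjusted p = 0.0461). Its condensin partner Smc4 (0.82) and Top2a, the topoisomerase that untangles chromosomes (0.97), did not pass.

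None of the 6 kinetochore and centromere genes, the 7 spindle motors and microtubule binders or the 5 checkpoint genes passed, yet their medians were near those of the other roles. Kinetochore genes had a median log2 fold change of 0.87, led by the motor Cenpe (0.92) with the outer kinetochore subunits Nuf2 (0.90) and Spc25 (0.90). Spindle motors and binders had a median of 0.84, with Kif2c, a microtubule depolymerase, at 0.96 and Tpx2, an activator of Aurora A, at 0.84. Checkpoint genes had a median of 0.78, from 0.98 for the kinase gene Bub1 to 0.29 for Bub3. Summed over the 6 kinetochore genes, levels were 507 ± 54.4 CPM in sgMif libraries and 283 ± 53.2 CPM in sgSCR libraries (SD, n = 2 each).

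The 2 smallest changes were those of Pttg1 and Bub3. Pttg1, the gene of securin, which restrains separase until anaphase, stood at 10.3 and 10.5 CPM in sgMif libraries, against 10.2 and 10.2 CPM in sgSCR libraries. All 4 libraries were at nearly the same level, and its log2 fold change was 0.02 ± 0.20 (adjusted p = 0.974 by edgeR). Bub3, a checkpoint adaptor that binds BUB1 and BUBR1, stood at 61.5 and 67.6 CPM in sgMif libraries, against 54.0 and 51.7 CPM in sgSCR libraries (0.29 ± 0.15, adjusted p = 0.371). Cdc20 and Ube2c, an activator and the ubiquitin-conjugating enzyme of the APC/C, had larger log2 fold changes of 0.79 and 0.71 that did not pass.

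**Figure D2:**
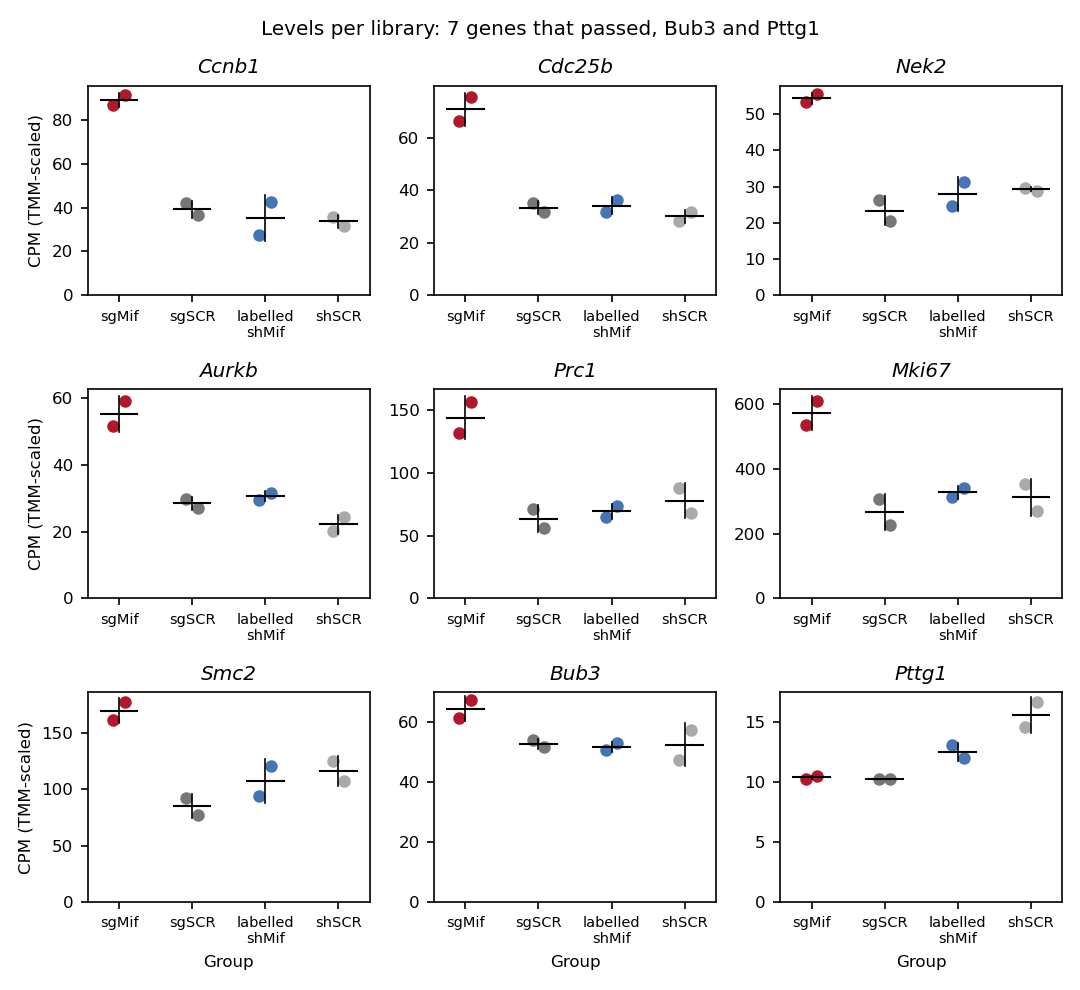
TMM-scaled CPM (y axis, from 0) of the 7 genes that passed for sgMif against sgSCR and of Bub3 and Pttg1, by group. Points are single libraries, long bars the mean and thin bars the SD of 2 libraries; both sgMif points lie above all other points in 8 panels, and Pttg1 is highest in shSCR.

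The number of genes past the threshold, among the 45 and among all genes, rested on single libraries and on the fit. With 1 library left out, which leaves 1 library in a group, the median log2 fold change stayed between 0.71 and 1.02. Against 7 in the main fit (161 of all genes), the count was 0 with a term for the olfactory receptor class (49 of all genes). It was 0 with counts scaled by transcript length (18) and 2 with protein-coding transcripts alone (128). With the replicate block within systems it was 4 (263 of all genes). It was 33 by DESeq2 (990 of all genes) and 40 without a filter on low counts (1494 of all genes). In the 5 libraries of the high class the median was 0.77.

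Summed macrophage marker levels were 163 and 130 CPM in sgMif libraries, against 394 and 218 CPM in sgSCR libraries. Of the 14 markers, 13 had a log2 fold change below 0 (median -1.27), 1 passed as lower (0.619% of all genes did), and none was at 0 in any library. In the hairpin libraries the sum was 514 and 265 CPM where labelled shMif and 298 and 328 CPM where shSCR. T cell markers summed to 1.94 to 6.95 CPM and endothelial markers to 34.0 to 273 CPM. The part of such cells in the mitotic gene levels was not tested.

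In the hairpin tumours the same genes showed no common shift. Labelled shMif libraries held 2648 and 3146 CPM of the 45 genes and shSCR libraries 2976 and 2700 CPM, so the groups overlapped. The median log2 fold change was 0.08, against 0.03 for all genes, and 28 of 45 were above 0. No gene passed edgeR's test, where 0.0184% of all genes did. An unadjusted p under 0.05 was reached by 7 of the 45, against 9.26% of all genes, and DESeq2 called 1 member among 182 genes in all. Both labelled shMif libraries lay above both shSCR libraries in 14 genes (19.4% of all genes) and below them in 2 (22.3% of all genes).

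The roles spread out in this comparison. Entry regulators had a median log2 fold change of 0.40, with all 7 above 0, and APC/C partners and substrate a median of 0.70, while chromosome structure genes had -0.16 and kinetochore genes -0.02. Foxm1, with the smallest p, stood at 102 and 109 CPM in the libraries labelled shMif, against 58.7 and 77.6 CPM in shSCR libraries. The groups did not overlap, and the log2 fold change was 0.63 ± 0.16 (adjusted p = 0.435 by edgeR). Ube2c had the highest value, with 56.1 and 52.0 CPM in the libraries labelled shMif, against 18.4 and 42.4 CPM in shSCR libraries (0.83 ± 0.32, adjusted p = 0.520). The 2 shSCR libraries differed from each other by more than the nearest values of the 2 groups did.

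Cdc20 (0.70 ± 0.25), Cenpa, the centromeric histone (0.69 ± 0.24), Kif20a (0.53 ± 0.16), Plk1 (0.47 ± 0.17) and Aurkb (0.46 ± 0.16) followed, all with adjusted p of 0.463 to 0.489. The lowest values were those of Cenpe (-0.37 ± 0.23, adjusted p = 0.646) and Pttg1 (-0.32 ± 0.19, adjusted p = 0.633). Cenpe stood at 118 and 143 CPM in the libraries labelled shMif, against 201 and 135 CPM in shSCR libraries. Here shSCR 1 alone was high. Without shSCR 2, 4 of the 45 genes passed as higher, among 758 genes in all. Within the high olfactory receptor class 4 passed as higher and 1 as lower, among 1162 in all, with a median of -0.09. Without labelled shMif 2 the median was -0.08.

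**Figure D3:**
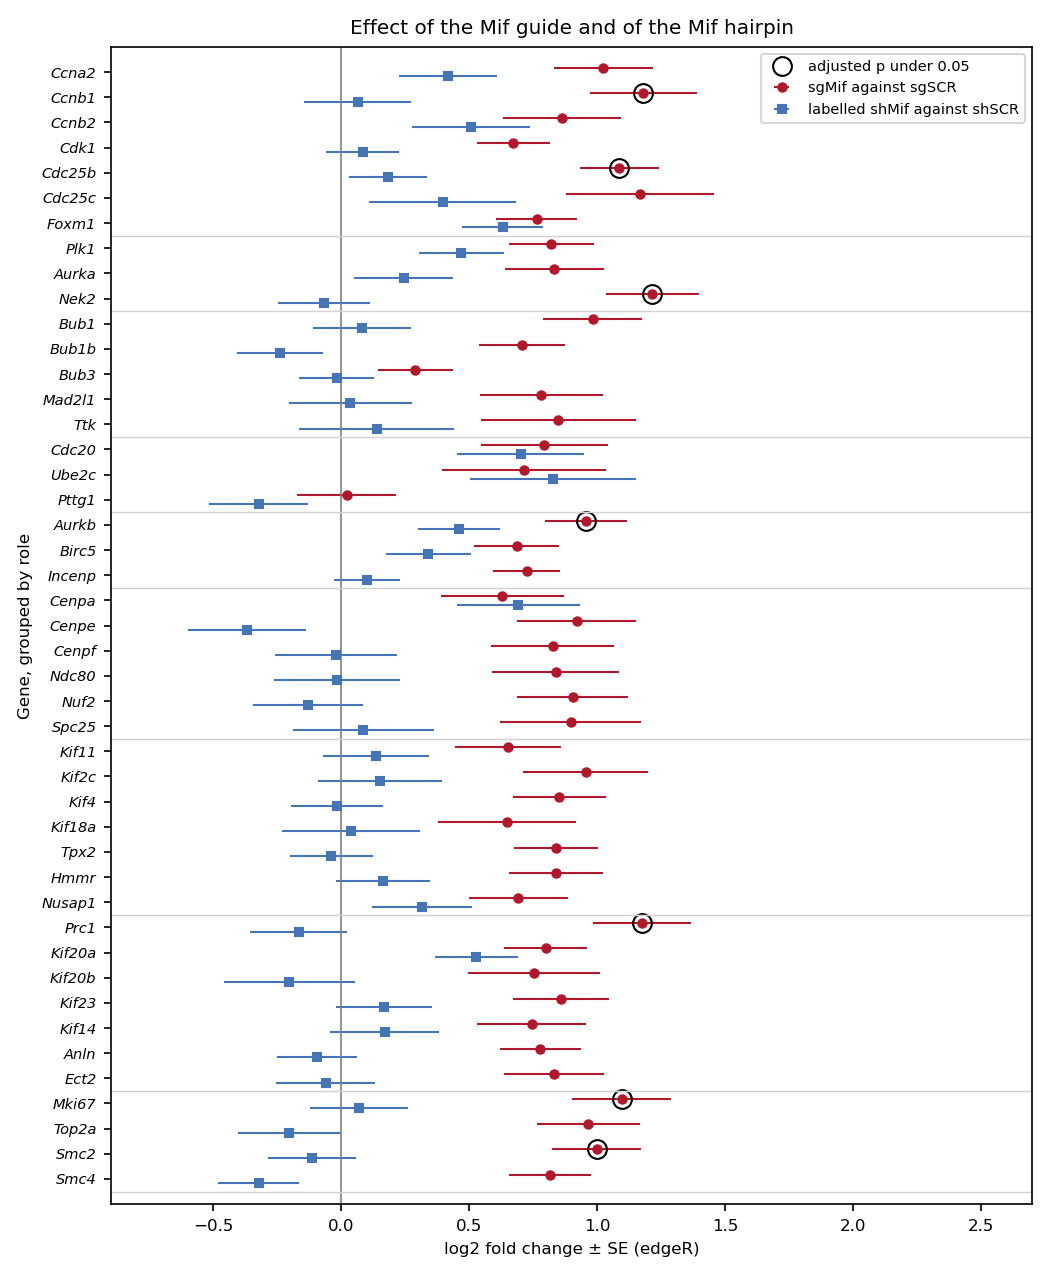
log2 fold change (x axis) with its SE for each of the 45 genes (y axis, grouped by role), for sgMif against sgSCR (red circles) and labelled shMif against shSCR (blue squares), with a ring around the 7 values of adjusted p under 0.05. Red points lie between 0.02 and 1.22, and blue points between -0.37 and 0.83.

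Whether the guide and the hairpin differed was tested directly, as the sgMif minus sgSCR effect less the labelled shMif minus shSCR effect. The difference was above 0 for 43 of 45 genes, with a median of 0.75 on the log2 scale against -0.04 for all genes. No member passed, where 0.0920% of all genes did, and 24 of 45 reached an unadjusted p under 0.05, against 15.8% of all genes. DESeq2 called 12 members among 654 genes in all, and 7 members among 527 genes passed without shSCR 2. The 2 highest differences and the 5 smallest p values were those of Prc1 (1.34 ± 0.27, adjusted p = 0.129 by edgeR), Cenpe (1.29 ± 0.33, 0.167), Nek2 (1.28 ± 0.25, 0.126), Smc4 (1.14 ± 0.23, 0.127), Smc2 (1.11 ± 0.24, 0.149) and Cdc25b (0.91 ± 0.22, 0.162). Ube2c (-0.11 ± 0.45) and Cenpa (-0.06 ± 0.34) were the 2 genes below 0. An effect of the guide that differs from that of the hairpin was thus not shown for any single gene at this threshold.

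A model with 1 shared Mif effect over both systems gave a median log2 fold change of 0.49 (all genes 0.00) with 44 of 45 above 0. No member and none of all genes (0%) passed in it by edgeR, while 24 of 45 members reached an unadjusted p under 0.05, against 8.01% of all genes. DESeq2 called 10 members and 279 genes in all. The smallest p values were those of Foxm1 (0.70 ± 0.12, adjusted p = 0.147), Kif20a (0.66 ± 0.13, 0.164), Aurkb (0.71 ± 0.14, 0.188), Plk1 (0.65 ± 0.13, 0.198) and Cdc20 (0.75 ± 0.17, 0.256). Cdc25c (0.78 ± 0.24, adjusted p = 0.426) and Ube2c (0.77 ± 0.22, 0.366) had the highest values, and Pttg1 (-0.15) and Bub3 (0.14) the lowest.

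Between the 2 kinds of control, the genes spread to both sides of 0. The median log2 fold change of shSCR against sgSCR was -0.07 (all genes -0.04), with 19 of 45 above 0. No member passed, where 4.02% of all genes did. An unadjusted p under 0.05 was reached by 12 of 45, against 22.9% of all genes, and DESeq2 called 6 members among 1948 genes in all. Both shSCR libraries lay above both sgSCR libraries in 5 genes and below them in 16, patterns seen in 28.4% and 26.3% of all genes. Without shSCR 2, 6 members passed, 1 as higher and 5 as lower, among 1848 genes in all, and without sgSCR 1 the median was 0.07.

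Single genes stood at either end between these controls. Ube2c, at 18.4 and 42.4 CPM in shSCR libraries against 74.8 and 68.6 CPM in sgSCR libraries, had the lowest log2 fold change (-1.24 ± 0.33, adjusted p = 0.0752 by edgeR). Nusap1, a microtubule-bundling protein gene, had -0.86 ± 0.20 (adjusted p = 0.0534), Foxm1 -0.71 ± 0.16 (0.0513) and Plk1 -0.64 ± 0.17 (0.0726). Pttg1 lay at the other end, with 14.6 and 16.7 CPM in shSCR libraries against 10.2 and 10.2 CPM in sgSCR libraries (0.61 ± 0.19, adjusted p = 0.115). Smc4 stood at 360 and 295 CPM in shSCR libraries, against 245 and 208 CPM in sgSCR libraries (0.53 ± 0.16, adjusted p = 0.0984). All 4 chromosome structure genes were above 0 here and all 7 entry regulators below 0.

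The libraries labelled shMif, set against the sgMif libraries, again placed the mitotic genes apart. Of the 45, 13 passed as lower and 0 as higher, where 0.834% of all genes passed as lower. The median log2 fold change was -0.83 (all genes 0.00), 44 were below 0, and in 44 both labelled shMif libraries lay below both sgMif libraries (24.7% of all genes). This comparison shares the sgMif libraries with the first, so it is no separate support. The 13 genes included all 3 mitotic kinases and 3 entry regulators.

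Spc25, a subunit of the NDC80 complex that holds microtubules, had the lowest value. It stood at 5.10 and 7.68 CPM in the libraries labelled shMif, against 16.0 and 19.2 CPM in sgMif libraries (-1.46 ± 0.28, adjusted p = 0.0439 by edgeR). The groups were far apart at a low level. Ccnb1 stood at 27.7 and 42.6 CPM in the libraries labelled shMif, against 86.7 and 91.2 CPM in sgMif libraries (-1.34 ± 0.21, adjusted p = 0.0278), and Nusap1 at 14.1 and 12.8 CPM against 28.0 and 35.1 CPM (-1.23 ± 0.20, adjusted p = 0.0286).

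Aurka (-1.12), Cdc25b (-1.06), Prc1 (-1.05), Plk1 (-0.99), Tpx2 (-0.99), the checkpoint kinase genes Bub1 (-0.97) and Bub1b (-0.88), Nek2 (-0.96), Aurkb (-0.85) and Foxm1 (-0.84) made up the rest, with adjusted p of 0.0235 to 0.0495 by edgeR. Bub3 (-0.32) and Pttg1 (0.27) had the smallest sizes of change and did not pass. The count moved with the library left out, among all genes too. Over these fits the median log2 fold change ran from -0.99 to -0.70. By DESeq2 the count was 35 (1132 of all genes), and without a filter it was 40 (1407). It was 7 with protein-coding transcripts (233) and 2 with counts scaled by length (91). Summed macrophage markers were 514 and 265 CPM in the libraries labelled shMif, against 163 and 130 CPM in sgMif libraries, with all 14 log2 fold changes above 0 and 2 past the test as higher (1.18% of all genes were), and their part in the result was not tested.

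Across the 8 libraries, sgMif 2 held the highest level of 37 genes and sgMif 1 that of 7, shares that were 14.8% and 11.3% over all genes tested. The exception was Pttg1, highest in shSCR 2, as were 7.52% of all genes. The lowest level was in sgSCR 2 for 18 genes, in shSCR 1 for 13 and in labelled shMif 1 for 9, against 14.5%, 21.8% and 12.6% of all genes. Libraries of a group also differed as a block. In sgSCR, the second library was above the first in 2 of 45 genes (48.1% of all genes). The median log2 difference was -0.33 (all genes -0.01). In the libraries labelled shMif the second was above in 40 of 45 (56.4% of all genes), with a median of 0.26 (all genes 0.05). In sgMif the second was above in 38 of 45 (51.6% of all genes), with a median of 0.14 (all genes 0.02). These 3 within-group shifts were smaller than the 0.83 between sgMif and sgSCR and larger than the 0.08 between labelled shMif and shSCR.

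In shSCR the second library was above the first in 21 of 45 genes (49.95% of all genes). Single genes among the 45 ran from -0.57 to 1.20 on the log2 scale. Ube2c was the highest, followed by Cdc20 and Cenpa, and Ndc80 and Cenpe were the lowest. Over the 45 genes, this difference had a Spearman correlation of -0.56 with the length of the leading transcript and of 0.54 with its GC content (-0.12 and 0.43 over all genes). The genes share their libraries, so these are descriptions. For sgMif against sgSCR the correlations over the 45 genes were 0.13 with length and -0.09 with GC content, and for labelled shMif against shSCR they were -0.45 and 0.53. At the low end of the hairpin comparison lay Cenpe (7910 bases) and Pttg1, with the shortest leading transcript (696 bases). That transcript held 0 to 56.7% of Pttg1 reads over the libraries, so its length is a poor description of this gene. The part of length in these differences was not tested.

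**Figure D4:**
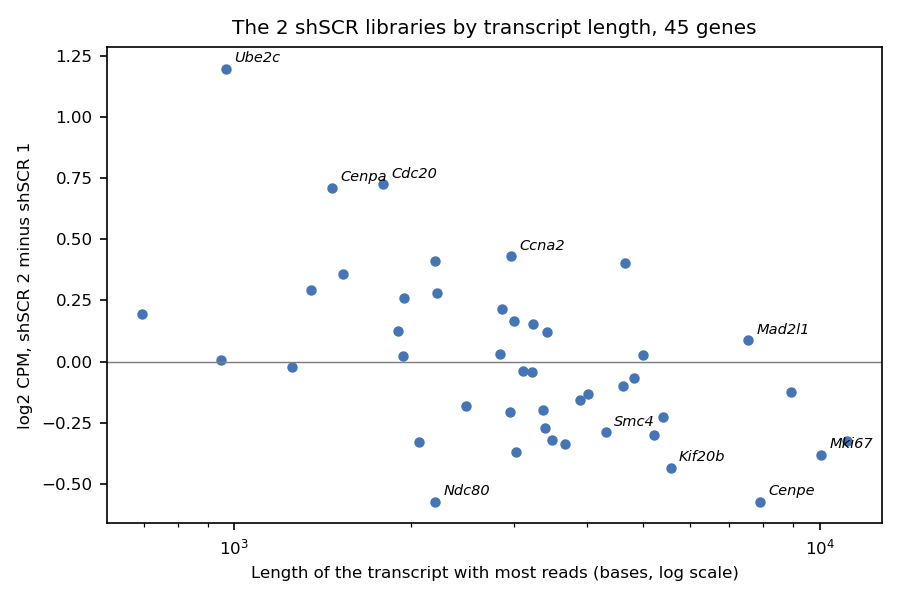
log2 CPM of shSCR 2 minus shSCR 1 (y axis) against the length in bases of the transcript with most reads (x axis, log scale) for the 45 genes, 1 point each. Ube2c, at 967 bases, lies at 1.20 and Cenpe, at 7910 bases, at -0.57.

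Levels of different genes can be compared per length, in TPM (transcripts-per-million units). Summed over all their transcripts, the 45 genes took 2786 and 2952 TPM in sgMif libraries, against 1852 and 1434 TPM in sgSCR libraries, and 1548 and 1610 TPM in the libraries labelled shMif, against 1554 and 1398 TPM in shSCR libraries. Counting protein-coding transcripts alone, Ube2c had the highest mean level over the 8 libraries, 108 TPM, followed by Birc5 (86.7 TPM), Smc4 (84.0 TPM), Top2a (81.2 TPM) and Cdk1 (59.9 TPM). Mki67 averaged 45.8 TPM. The kinesins Kif18a (3.83 TPM) and Kif14 (1.75 TPM) were lowest.

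The order of neighbours was not firm. Birc5, Smc4 and Top2a stood at 131 ± 7.75, 107 ± 8.01 and 125 ± 17.3 TPM in sgMif libraries, and at 78.4 ± 13.7, 73.3 ± 20.6 and 64.6 ± 9.57 TPM in sgSCR libraries (SD, n = 2 each), so they did not keep 1 order. Ube2c ranged from 27.9 TPM in shSCR 1 to 199 TPM in sgMif 1, the widest span of the 5 leading genes. Kif14 was at 2.85 and 2.58 TPM in sgMif libraries, against 1.94 and 1.25 TPM in sgSCR libraries.

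Transcript composition limits the per-length values of several genes, and Mad2l1, Kif23 and Cenpa are given as examples. For Mad2l1, a checkpoint gene, 82.8 to 91.9% of TPM was assigned to a processed transcript of 229 bases, while 65.1 to 82.7% of its reads were on coding transcripts. For Kif23, a retained-intron transcript of 579 bases led the TPM with 22.6 to 37.2%. For Cenpa, coding transcripts held 19.1% of reads in shSCR 1, while no other library fell below 43.9% or exceeded 54.2%. Its level in shSCR 1 was also the lowest of the 8, at 23.0 CPM. Mki67, by contrast, had 100% of its reads on coding transcripts.

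Genes of neighbouring cell cycle functions were set beside the 45. Of 88 other mitosis genes, 7 passed as higher and 0 as lower for sgMif against sgSCR (0.368% and 0.619% of all genes). Of the 88, 85 were above 0, with a median of 0.75. Among those with the smallest p were Iqgap3, a cytoskeletal scaffold gene (0.98 ± 0.14, adjusted p = 0.0330 by edgeR), the condensin subunit Ncapd3 (0.95 ± 0.14, 0.0334) and the spindle motor Kifc1 (0.89 ± 0.14, 0.0394). Iqgap3 stood at 132 and 125 CPM in sgMif libraries, against 70.9 and 59.2 CPM in sgSCR libraries. Of 26 genes of the APC/C, cohesin and their regulators, 0 passed, with a median of 0.30. In this list 7 had an unadjusted p under 0.05 by edgeR, where 16.6% of all genes did.

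Replication and G1/S genes were also mostly higher in sgMif. Of 47 tested, 7 passed as higher and 0 as lower for sgMif against sgSCR (0.368% and 0.619% of all genes). Of the 47, 46 were above 0, with a median of 0.61. Mcm6, a subunit of the replicative helicase, stood at 252 and 260 CPM in sgMif libraries, against 136 and 127 CPM in sgSCR libraries (0.96 ± 0.12, adjusted p = 0.0288 by edgeR). Uhrf1, which carries DNA methylation through replication (0.80 ± 0.12, 0.0333), the chromatin assembly subunit Chaf1a (0.89 ± 0.14, 0.0362) and the helicase subunit Mcm4 (0.82 ± 0.14, 0.0404) followed. The mean log2 CPM of the 45 mitosis genes less that of the replication genes was 0.50 and 0.66 in sgMif libraries. In sgSCR libraries it was 0.49 and 0.25. Both sgMif values lay above both sgSCR values, but the nearest, 0.499 in sgMif 1 and 0.493 in sgSCR 1, were almost equal.

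Among 11 cell cycle inhibitors tested, 1 passed as lower and 1 as higher for sgMif against sgSCR (0.619% and 0.368% of all genes). Cdkn1a, which encodes the CDK inhibitor p21, stood at 43.0 and 45.5 CPM in sgMif libraries, against 123 and 115 CPM in sgSCR libraries (-1.42 ± 0.20; 2.68-fold lower; adjusted p = 0.0330 by edgeR). Its hairpin libraries lay between, at 89.1 and 58.7 CPM where labelled shMif and 67.5 and 67.6 CPM where shSCR. Rbl1, the gene of the pocket protein p107 and itself induced late in G1, stood at 49.7 and 53.6 CPM in sgMif libraries, against 22.4 and 27.1 CPM in sgSCR libraries (1.06 ± 0.16, adjusted p = 0.0333). The median of the 11 was -0.11.

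For labelled shMif against shSCR, none of the 4 lists had a gene past edgeR's test, and their medians were 0.11 for other mitosis genes, 0.05 for replication and G1/S genes, -0.12 for APC/C and cohesin and 0.05 for inhibitors. Unadjusted p was under 0.05 for 8 of 88, 0 of 47, 3 of 26 and 1 of 11, where 9.26% of all genes reached it. For labelled shMif against sgMif, 19 of 88 other mitosis genes and 5 of 47 replication genes passed as lower. None of 26 in the APC/C and cohesin list did, and 0.834% of all genes did. Between the controls, Mcm6 was higher in shSCR (0.77 ± 0.12, adjusted p = 0.0206), as was the cohesin subunit Rad21 (0.72 ± 0.16, 0.0484), while Pmf1, a kinetochore subunit gene (-0.74 ± 0.14, 0.0364), and Cdca3, a cell division gene (-1.02 ± 0.21, 0.0386), were lower.

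**Figure D5:**
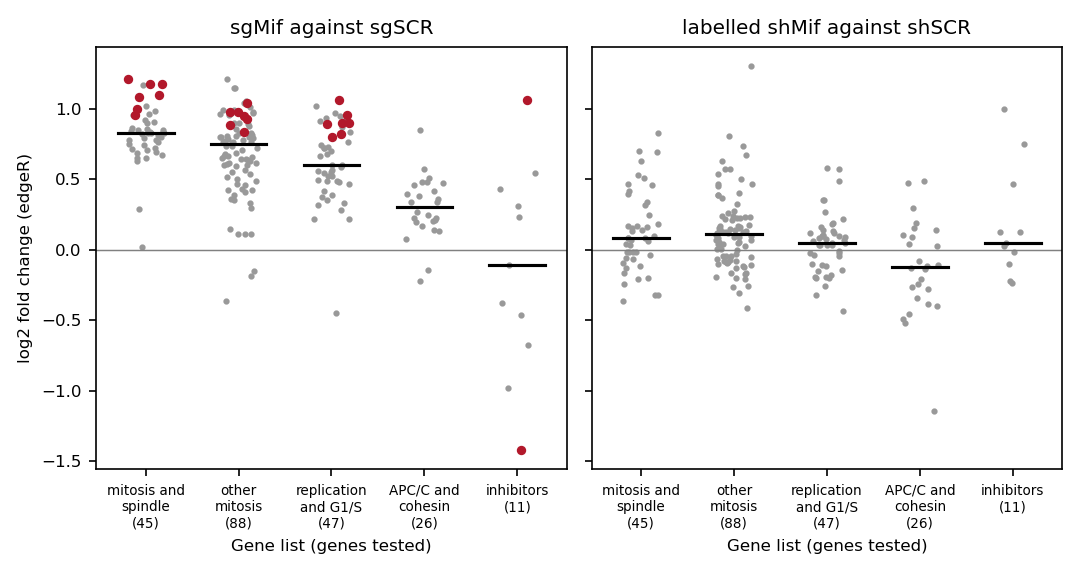
log2 fold change (y axis) of each tested gene in 5 gene lists (x axis, genes tested in brackets), for sgMif against sgSCR at left and labelled shMif against shSCR at right; red points passed at adjusted p of 0.05 and bars are medians. At left the medians are 0.83, 0.75, 0.61, 0.30 and -0.11, and at right no point passed.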

How the data were processed

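Sorted tumour cells were extracted with TRIzol for total RNA, per the labels' protocols. Per the submitters' processing notes, reads went through Trimmomatic and Salmon with build mm10, and no version, option, kit or strandedness is given in the sources used here. For each transcript, the deposited tables give an estimated count of reads and a value in TPM, per the file headers. The authors' TPM divides by effective length and sums to the same total in each library.

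Estimated counts were summed per gene through the GENCODE M21 annotation and rounded (569 of 116546 transcripts, with 0.101 to 0.205% of reads, had no match). Overlapping, antisense or near-identical genes could share reads. Genes were kept by filterByExpr of edgeR 4.0.16 (minimum count 10, minimum total 15), scaled by TMM and tested in R 4.3.3 by edgeR's quasi-likelihood test, with Benjamini-Hochberg adjustment over all 16309 genes at 0.05. The contrasts came from 1 fit of 4 group means (4 residual degrees of freedom), and the shared Mif effect from an additive fit (5). CPM values are TMM-scaled, except those of the olfactory receptor genes and their class limit, which use no TMM factor.

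The members, gene lists, roles and tests were chosen with earlier results of these data known. Genes named are members past the threshold, otherwise the 5 smallest p, the 2 highest and 2 lowest changes, and up to 4 passing genes per other list, of which 1 is not reported here. Other members were named by role as descriptions, and other genes or libraries singled out were chosen after their values were seen.

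Alternatives were relative log expression size factors, DESeq2 1.42.0, no filter, counts scaled by transcript length, replicate blocks, protein-coding transcripts, only the groups compared, a term for the olfactory receptor class (1000 CPM limit), only the high class, and each library left out. Promoters were searched with Python 3.11.15 in the RefSeq table, using the first listed start of a gene.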

Additional observations from a re-analysis of the deposited data

Results flagged for a closer look

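For Smc4 and Pttg1, both sgMif libraries lay above both sgSCR libraries while both libraries labelled shMif lay below both shSCR libraries, which drew attention to them. Smc4, a condensin subunit, stood at 378 and 419 CPM in sgMif libraries, against 245 and 208 CPM in sgSCR libraries, and at 244 and 280 CPM in the libraries labelled shMif, against 360 and 295 CPM in shSCR libraries. The difference between the 2 effects was 1.14 on the log2 scale and did not pass edgeR's quasi-likelihood test (adjusted p = 0.127). For Pttg1, the securin gene, the guide groups were nearly level, at 10.27 and 10.48 CPM in sgMif and 10.23 and 10.22 CPM in sgSCR. Pttg1 stood at 13.03 and 11.95 CPM in the libraries labelled shMif, against 14.6 and 16.7 CPM in shSCR libraries. Its difference was 0.344 on the log2 scale (adjusted p = 0.557).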

How the results depend on the processing

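The direction of sgMif against sgSCR held for 44 of the 45 genes in all 18 alternatives, the exception being Pttg1, which was above 0 in 15. Its log2 fold change was -0.00042 with relative log expression size factors, -0.00047 by DESeq2 and -0.0859 with counts scaled by transcript length. The count of genes past the threshold moved far more. Against the 7 reported (161 of all genes), it was 33 by DESeq2 (990 of all genes) and 40 without a filter on low counts (1494). It was 12 with only the groups compared (223) and 2 with protein-coding transcripts (128). It was 0 with counts scaled by transcript length (18) and 0 with the olfactory receptor class as a term (49). In the 5 libraries of the high class, where 1 sgMif, 1 labelled shMif and 1 shSCR library remained, the median was 0.77. Medians ran from 0.71 to 1.02 when 1 library was left out. Cdc25b and Nek2 passed most often, in 10 of the 18 alternatives each.

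Replicate numbers are shared by the groups, but only 2 pairs exist for each comparison and no label ties a number to a mouse or day. Deviations from group means correlated at 0.154 to 0.371 between same-numbered libraries. With the replicate block within systems 4 members passed for sgMif against sgSCR (263 of all genes). Ccnb1, Aurkb, Mki67 and Smc2 did not (adjusted p of 0.0506 to 0.0586 by edgeR), while Cdc25b, Nek2 and Prc1 did. With the replicate block over both systems 13 passed for sgMif against sgSCR (459 of all genes). In that fit 2 passed for shSCR against sgSCR (994 of all genes).

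For labelled shMif against shSCR, where 0 passed, DESeq2 gave 1 (182 of all genes) and no filter 4 (662 of all genes). The median was -0.0896 in the high class and ran from -0.0786 to 0.216 on leaving out 1 library. For the difference of effects, also 0, DESeq2 gave 12 (654 of all genes) and no filter 18 (1306 of all genes). Its median was 0.85 in the high class and ran from 0.60 to 1.01 on leaving out 1 library. For shSCR against sgSCR, also 0 (655 of all genes), relative log expression gave 2 (667), DESeq2 6 (1948) and no filter 7 (2425). Protein-coding transcripts gave 1 (510 of all genes). The high class, where 1 shSCR library remained, gave 9 (2747 of all genes), so the count rose among all genes too. Leaving out 1 library gave 0 to 6 with medians of -0.191 to 0.0683. For labelled shMif against sgMif, 13 became 35 by DESeq2, 40 without a filter, 2 with counts scaled by length and 7 with protein-coding transcripts, and leaving out 1 library gave 0 to 19 with medians of -0.99 to -0.70. The shared Mif effect had 10 by DESeq2 (279 of all genes) and 12 without a filter (549). Its medians ran from 0.34 to 0.63 on leaving out 1 library.

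The difference of effects of Cenpa, -0.06 as reported, was 0.11 with counts scaled by length and ran from -0.457 to 0.262 on leaving out 1 library, above 0 without sgMif 2, sgSCR 1, labelled shMif 2 or shSCR 1. That of Ube2c ran from -0.831 to 0.376, above 0 without shSCR 1. The shared effect of Cdc25c was -0.30 with counts scaled by length. The cause of these changes was not tested. Fitting only the groups compared gives no value for the difference or the shared effect. Where 1 library stood alone in a group, its spread was taken from the other groups.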
